A study of Mus musculus with 27 samples.

Results

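Genes of the neural extracellular matrix, 6 in all, were followed through the mouse optic stalk (OS) at embryonic day 14. They were the lecticans versican (Vcan), neurocan (Ncan) and brevican (Bcan), the glycoprotein tenascin-C (Tnc), the link protein Hapln1 and the transmembrane proteoglycan Cspg5 (neuroglycan C). The members were taken by gene symbol from a count table of 55487 genes, with Ensembl identifiers matched to symbols without their version. All 6 were in the table, and all 6 passed the filter on low counts (over 10 counts in 3 or more of the 27 libraries), as did 16330 genes in all.

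Lecticans are chondroitin sulfate proteoglycans that bind hyaluronan at one end and tenascins at the other, and link proteins such as Hapln1 lock the lectican onto the hyaluronan chain. In the developing nervous system this matrix surrounds progenitors and growing axons. Versican is also abundant in embryonic mesenchyme, whereas neurocan, brevican and Cspg5 are best known from neurons and glia. Tenascin-C is found around astrocyte progenitors and in some mesenchyme. In the optic nerve head, chondroitin sulfate proteoglycans and tenascin-C are studied as boundary molecules along retinal ganglion cell axons.

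The libraries came from Geo-seq, in which small areas of a 12-µm frozen head section are cut out by laser and their RNA is amplified. Dorsal OS, ventral OS and the retinal ganglion cell (RGC) axons between them were captured from 4 control and 5 Smarcc1-DCT-cKO embryos, which gave 6 groups of 4 or 5 libraries. Smarcc1 (Baf155) encodes a core subunit of the SWI/SNF chromatin remodeling complex. In the mutants its loxP-flanked alleles were deleted by Dct-Cre, which is active in the retinal pigment epithelium and in the OS, first dorsally and later ventrally. Controls were littermates. RGCs are not named among the cells with Dct-Cre activity, whereas the astrocyte progenitors that surround their axons are, and how much of either the axon captures held was not measured. Every embryo was taken to have given 1 library per region, numbered alike in the sample names. Batch A held control 1 and mutants 1 to 3, and batch B held controls 2 to 4 and mutants 4 and 5.

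Library totals ran from 10.9 to 33.98 M counts (median 16.8 M), so that 3 counts, taken as the detection floor, equaled 0.0883 to 0.275 CPM (counts-per-million, the counts of a gene scaled to its library total). Smarcc1 itself, the check of the labels, was at 75.9 to 289 CPM in dorsal controls and at 2.26 to 107 CPM in dorsal mutants. Dorsal mutants 1 and 2, at 94.9 and 107 CPM, lay within the control range, and a count over the whole gene does not resolve the deleted exons. In the ventral OS the controls (75.7 to 198 CPM) and mutants (14.7 to 64.4 CPM) did not overlap, and neither did they in the axon region (50.1 to 242 against 1.86 to 44.9 CPM). The markers of OS and astrocyte progenitors summed to between 1184 and 5553 CPM across the 27 libraries. Markers of other tissues were present too, and the 7 erythroid markers summed to between 2.27 and 29629 CPM. The 11 mesenchyme markers summed to 1162 to 11399 CPM in dorsal controls but to 55.6 to 395 CPM in dorsal mutants. The 9 pigment epithelium markers summed to 39.5 to 4865 CPM in dorsal controls and to 3034 to 12403 CPM in dorsal mutants. Dorsal control 3 stood apart, with the most mesenchyme marker counts and the fewest pigment marker counts of the dorsal libraries.

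Vcan and Cspg5 were found almost everywhere, and the other 4 genes in a minority of libraries. Vcan and Cspg5 each exceeded 3 counts in 26 of 27 libraries. Tnc did so in 11, Ncan in 9, Hapln1 in 8 and Bcan in 4. Levels of different genes can be compared only per length, as CPM per kilobase of exon (RPKM). On that scale the mean level over all libraries was 3.80 for Vcan, 3.50 for Cspg5, 1.79 for Ncan, 0.957 for Tnc, 0.502 for Bcan and 0.443 for Hapln1. The medians were 1.23 RPKM for Vcan and 2.22 RPKM for Cspg5, and 0 for the other 4. The means of those 4 genes rested on very few libraries. Dorsal control 3 held 79.7% of the summed CPM of Tnc and 66.8% of that of Bcan. The ventral and dorsal libraries of control 2 together held 84.5% of that of Ncan, and dorsal mutant 1 and axon mutant 5 held 85.1% of that of Hapln1. In whole captured regions, fewer cells of a type and less RNA per cell cannot be told apart.

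**Figure D1:**
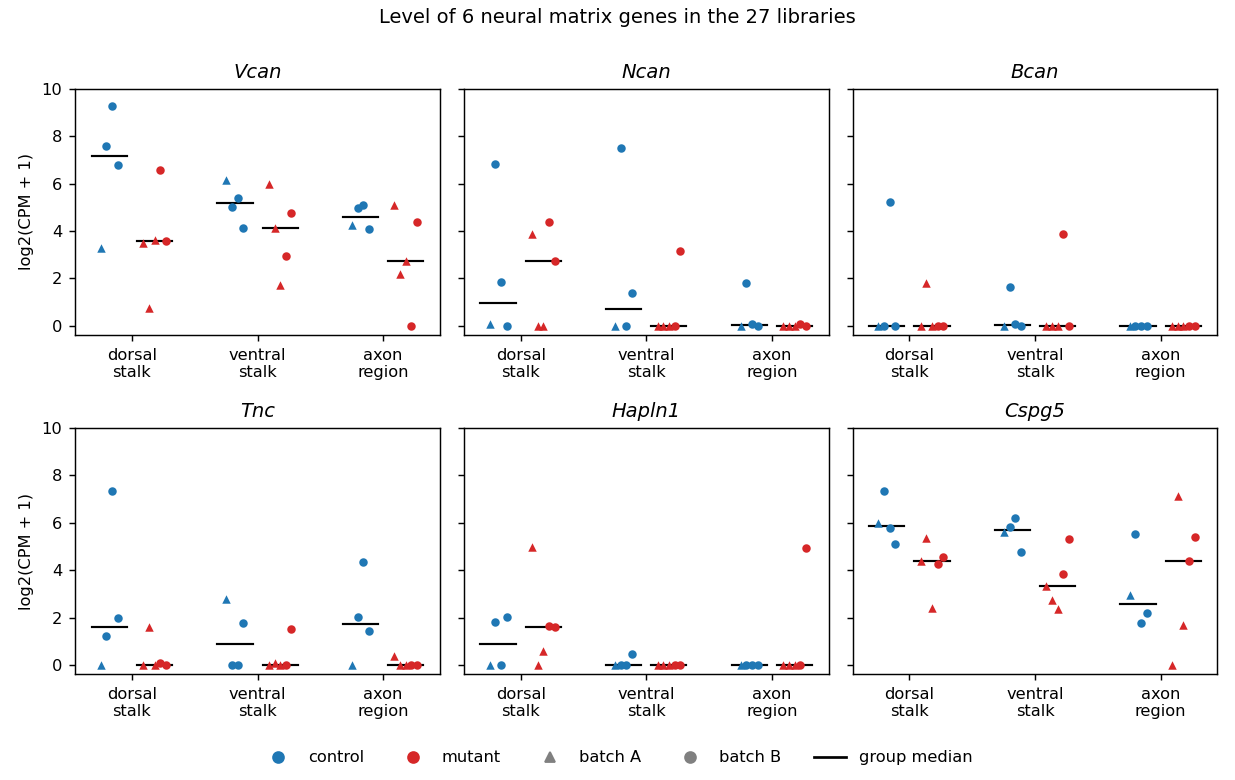
Level of each gene as log2(CPM + 1) on the vertical axis in the dorsal OS, ventral OS and axon region, with 1 point per library, colored by genotype and shaped by batch, and a line at each group median. Vcan and Cspg5 show values above 0 in 26 of 27 libraries each, whereas Bcan is at 0 in all axon libraries and the high points of Ncan, Bcan, Tnc and Hapln1 are single libraries.

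Versican, the large lectican of embryonic tissues, had its highest median in the dorsal OS of controls. Its gene (ENSMUSG00000021614.16, mm10 chr13:89655312-89742509, minus strand) had 14462 exonic bases, none shared with another gene. Dorsal control libraries 1 to 4 held 8.82, 189, 618 and 110.5 CPM, and dorsal mutants 1 to 5 held 10.4, 0.656, 11.2, 94.1 and 10.97 CPM. Controls 2 to 4 were above every mutant, and control 1, the only control of batch A, lay among the mutants. Ventral controls held 69.5, 30.9, 41.1 and 16.3 CPM and ventral mutants 62.5, 16.5, 2.30, 6.62 and 26.3 CPM. Axon controls held 17.8, 29.9, 32.8 and 15.9 CPM and axon mutants 33.4, 3.50, 5.71, 0 and 19.8 CPM. In both of these regions the ranges overlapped. By group median the order was dorsal control (149.5 CPM), ventral control (36.0), axon control (23.9), ventral mutant (16.5), dorsal mutant (10.97) and axon mutant (5.71). The ranges of each neighboring pair in that order overlapped.

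Between genotypes, the fitted log2 fold change of Vcan (mutant over control, with batch in the model) was -1.78 ± 1.10 in the dorsal OS (SE, n = 4 and 5, edgeR adjusted p = 0.953). It was -1.06 ± 1.13 in the ventral OS (edgeR adjusted p = 0.999) and -1.02 ± 2.40 in the axon region (edgeR adjusted p = 1.00). Over the alternative settings the ventral value lay between -2.21 (limma voom) and -0.63 (all 27 libraries), and the axon value between -5.50 (without axon mutant 5) and -0.39 (without axon mutant 4). None met both conditions of a call, which were an adjusted p under 0.05 and a log2 fold change beyond 0.58 in either direction. Within batch B alone the dorsal value was -2.55 (edgeR adjusted p = 0.807). Without dorsal control 3 it was -0.97, and without dorsal mutant 5 it was -0.98. The mesenchyme markers differed between the same dorsal groups without overlap (1162 to 11399 against 55.6 to 395 CPM summed), with 10 or 11 of the 11 genes above 3 counts in the controls and 4 to 9 in the mutants. Dorsal control 3 had the highest sum of mesenchyme markers and the highest Vcan level of all libraries. Within dorsal controls 1 to 4, with 1162, 3602, 11399 and 1919 CPM of these markers, the order was the same for both. Within the dorsal mutants it was not, where mutant 5 had the highest sum (395 CPM) and mutant 4 the highest Vcan level. Over all libraries the order was not the same either. Axon control 1 held 2659 CPM of these markers and 17.8 CPM of Vcan, whereas dorsal mutant 4 held 264 and 94.1 CPM. The part of mesenchyme in the Vcan values was not tested.

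Between regions of controls, Vcan was 2.55 ± 0.94 higher on the log2 scale in the dorsal than in the ventral OS (edgeR adjusted p = 0.615). It was 3.09 ± 0.95 higher in the dorsal OS than in the axon region (edgeR adjusted p = 0.386). The ventral OS and the axon region differed by 0.53 ± 1.14 (edgeR adjusted p = 1.00). Neither dorsal difference passed the threshold. Without dorsal control 3 they were 1.28 and 1.82, and with embryo blocks they were 2.09 and 2.16. In mutants the same 3 differences were 0.17 ± 1.26, 0.85 ± 1.84 and 0.70 ± 1.79, all within 1 SE of 0 (edgeR adjusted p from 0.962 to 1.00). The dorsal genotype effect on Vcan differed from the ventral one by -2.44 ± 1.83 on the log2 scale (edgeR adjusted p = 1.00) and from the axon one by -2.37 ± 1.85 (edgeR adjusted p = 0.819).

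Of all pairs of the 6 genes, Vcan and Tnc had the highest correlation of log2(CPM + 1) across the 27 libraries (Pearson r = 0.55), but this rank rested on dorsal control 3. Without it the value was 0.31 (26 libraries), below those of Ncan and Cspg5 (0.41) and of Vcan and Ncan (0.39). The libraries share region, genotype and embryo, so r is given as a description. The 250 bases before the start of Vcan and Tnc, which both had their highest level in that library, are shown from RefSeq (GRCm38.p6). Vcan spans chr13:89742513-89742762 and Tnc, at the more upstream of its 2 listed starts, chr4:64047016-64047265, both on the minus strand. Capitals mark the motifs found, on either strand.
Vcan: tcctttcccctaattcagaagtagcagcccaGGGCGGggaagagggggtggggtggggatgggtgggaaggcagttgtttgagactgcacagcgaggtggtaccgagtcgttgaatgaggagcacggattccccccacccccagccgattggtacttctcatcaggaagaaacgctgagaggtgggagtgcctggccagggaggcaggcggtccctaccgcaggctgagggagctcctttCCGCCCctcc
Tnc: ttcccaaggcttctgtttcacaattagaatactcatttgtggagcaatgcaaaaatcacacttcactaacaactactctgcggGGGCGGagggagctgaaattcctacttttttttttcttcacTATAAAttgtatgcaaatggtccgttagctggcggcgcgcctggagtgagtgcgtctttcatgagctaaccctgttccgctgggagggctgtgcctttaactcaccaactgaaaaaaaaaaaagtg
The motifs were searched on both strands. The GC box (GGGCGG) was found at -219 and, on the other strand, at -10 in Vcan, and at -167 in Tnc, with positions counted back from the start. It stood in 32.7% of the 32851 mouse promoter windows of the same length. The letters of the TATA box (TATAAA) were found at -126 in Tnc and not in Vcan, and stood in 12.4% of windows. From the other listed start of Tnc the same letters lie at -205. Only exact letters were searched, and whether a match acts as a motif was not tested. The E box (CACGTG), the AP-1 site (TGACTCA), the Sox core (ACAAAG) and the Otx core (TAATCC) were in neither window, and stood in 6.02%, 4.46%, 16.5% and 6.25% of all windows. G and C made up 62.4% of the Vcan window and 44.8% of the Tnc window, against a median of 52.4%. Windows were at hand for 5 of the 6 genes, and none was used for Cspg5.

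Neurocan, a lectican of neurons, exceeded 3 counts in 9 libraries of 6 embryos, but most of its summed CPM came from control 2. Its gene (ENSMUSG00000002341.8, chr8:70093085-70120873, minus strand) was at 0.0416, 112, 2.60 and 0 CPM in dorsal controls 1 to 4 and at 13.6, 0, 0, 19.9 and 5.58 CPM in dorsal mutants 1 to 5. Ventral controls held 0, 182, 0 and 1.62 CPM, and of the ventral mutants only mutant 5 had counts (7.90 CPM). In the axon region the highest value was 2.51 CPM, in control 2. Both large values, 112 and 182 CPM, were thus from the dorsal and ventral regions of control 2. The same 2 libraries had the highest sums of the 11 neuron and axon markers in their regions (1323 and 1567 CPM, against 23.0 to 831 CPM and 39.4 to 225 CPM in the other dorsal and ventral libraries). In the axon region those markers summed to 263 to 1067 CPM while Ncan was near 0. The part of neurons in the Ncan values was not tested. Ncan passed no test between genotypes (edgeR adjusted p = 1.00, 0.999 and 0.911 in dorsal, ventral and axon).

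Brevican, a lectican of glia and of mature neural matrix, was close to absent. Its gene (ENSMUSG00000004892.13, chr3:87987531-88000230, minus strand) reached 36.8 CPM in dorsal control 3, 13.7 CPM in ventral mutant 4, 2.44 CPM in dorsal mutant 2 and 2.06 CPM in ventral control 2. A further library, ventral control 3, held 0.0571 CPM, which is under 3 counts. The other 22 libraries held no counts, among them all 9 of the axon region. A count of 0 in a library allows a level up to its floor of 0.0883 to 0.275 CPM. No 2 of the 4 libraries with Bcan came from the same group, and the edgeR adjusted p between genotypes was 1.00 in the dorsal and 0.999 in the ventral OS.

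Hapln1, the link protein that stabilizes lectican binding to hyaluronan, was seen mostly in the dorsal OS. Its gene (ENSMUSG00000021613.9, chr13:89539796-89611652, plus strand) lies 43.7 kb from the end of Vcan, and the 2 genes run toward each other. Dorsal controls held 0, 2.48, 0 and 3.03 CPM and dorsal mutants 30.6, 0, 0.495, 2.14 and 1.99 CPM. In the ventral OS 1 control library held 0.373 CPM and the other 8 libraries held 0. In the axon region mutant 5 held 29.6 CPM and the other 8 libraries held 0. The dorsal groups overlapped, and the edgeR adjusted p between genotypes was 1.00 in the dorsal OS, 0.999 in the ventral OS and 0.880 in the axon region. Across the 27 libraries Hapln1 and its neighbor Vcan had a Pearson r of 0.11.

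Tenascin-C, a secreted glycoprotein that binds lecticans and integrins, was detected more often in control libraries, mostly those of batch B. Its gene (ENSMUSG00000028364.15, chr4:63959785-64047015, minus strand) shares 2.26% of its exonic bases with 8030451A03Rik on the other strand, and the strand setting of the counting is not given in the sources used here. Dorsal controls held 0, 1.36, 160.1 and 2.89 CPM and dorsal mutants 0, 2.03, 0, 0.0690 and 0 CPM. Ventral controls held 5.83, 0, 0 and 2.42 CPM and ventral mutants 0, 0.0615, 0, 0 and 1.90 CPM. Axon controls held 0, 3.06, 19.1 and 1.69 CPM and axon mutants 0.286, 0, 0, 0 and 0 CPM. Tnc thus exceeded 3 counts in 8 of 12 control libraries and in 3 of 15 mutant libraries. These counts share embryos, were not tested, and have no such count over all genes beside them. In batch A the libraries above 3 counts were ventral control 1, dorsal mutant 2 and axon mutant 1. In batch B they were the dorsal and axon libraries of controls 2 to 4, ventral control 4 and ventral mutant 5. Of all genes tested, 48.6%, 46.8% and 42.3% were fitted higher in mutants in the dorsal, ventral and axon comparison. That share is of direction and not of detection. The edgeR adjusted p between genotypes was 1.00 in the dorsal OS, 0.999 in the ventral OS and 0.911 in the axon region. In controls the dorsal OS was 2.60 ± 2.51 above the axon region on the log2 scale (edgeR adjusted p = 0.862), and without dorsal control 3 the value was -2.38.

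Cspg5, a transmembrane chondroitin sulfate proteoglycan of growing neurites, was lower in most mutant than control libraries of the dorsal and ventral OS. Its gene (ENSMUSG00000032482.9, chr9:110243783-110262576, plus strand) had 10074 exonic bases, none shared. Dorsal controls held 61.9, 164, 54.3 and 33.4 CPM and dorsal mutants 19.7, 40.7, 4.24, 18.3 and 22.4 CPM. Only mutant 2 exceeded a control, and within each batch every mutant was below every control. Ventral controls held 47.7, 54.9, 73.0 and 26.5 CPM and ventral mutants 9.09, 5.66, 4.21, 13.2 and 38.5 CPM. Only mutant 5 exceeded a control, the batch B control 4. Axon controls held 6.84, 45.8, 2.39 and 3.53 CPM and axon mutants 0, 139, 2.18, 20.1 and 41.9 CPM. The axon groups overlapped fully, with mutant 2 the highest. By group median the order was dorsal control (58.1 CPM), ventral control (51.3), axon mutant (20.1), dorsal mutant (19.7), ventral mutant (9.09) and axon control (5.19), and the ranges of each neighboring pair overlapped.

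The fitted log2 fold change of Cspg5 between genotypes was -1.81 ± 0.99 in the dorsal OS (SE, n = 4 and 5, edgeR adjusted p = 0.938). It was -1.81 ± 0.97 in the ventral OS (edgeR adjusted p = 0.999) and 1.54 ± 2.51 in the axon region (edgeR adjusted p = 0.976). The median over all genes tested was -0.04, -0.08 and -0.29 in these comparisons. Without ventral control 1 the ventral value was -1.03, and within batch B alone it was -1.01. Without axon mutant 2 the axon value was -0.42. None passed the threshold. The 11 markers of OS and astrocyte progenitors summed to 2058 to 2819 CPM in dorsal controls and to 1184 to 2135 CPM in dorsal mutants, and to 3146 to 3780 and 2776 to 4068 CPM in the ventral groups. In the dorsal comparison 4 of these 11 genes were lower at an unadjusted edgeR p under 0.05 and 0 were called. Of all genes 5.35% had such a p, in either direction, and of the 11 mesenchyme markers 7 did, all lower. The 11 neuron and axon markers summed to 23.0 to 1323 CPM in dorsal controls and 40.8 to 368 CPM in dorsal mutants, and to 47.7 to 1567 and 39.4 to 225 CPM in the ventral groups. The part of progenitors, neurons or mesenchyme in the Cspg5 values was not tested. The genotype effect of the dorsal OS differed from that of the axon region by -3.43 ± 1.94 (edgeR adjusted p = 0.550), and that of the ventral OS from the axon region by -3.63 ± 2.00 (edgeR adjusted p = 0.5995). The dorsal and ventral effects differed by 0.21 ± 1.91 (edgeR adjusted p = 1.00). In controls the dorsal OS was 2.23 ± 1.30 and the ventral OS 1.64 ± 1.33 above the axon region, and the dorsal OS 0.58 ± 0.72 above the ventral OS (edgeR adjusted p = 0.507, 0.837 and 1.00). In mutants the same differences were -1.13 ± 1.63, -1.72 ± 1.72 and 0.62 ± 1.16 (edgeR adjusted p = 0.897, 0.789 and 1.00). The direction of the first turned with limma voom (1.22) and with embryo blocks (0.16), and that of the second with limma voom (0.34).

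**Figure D2:**
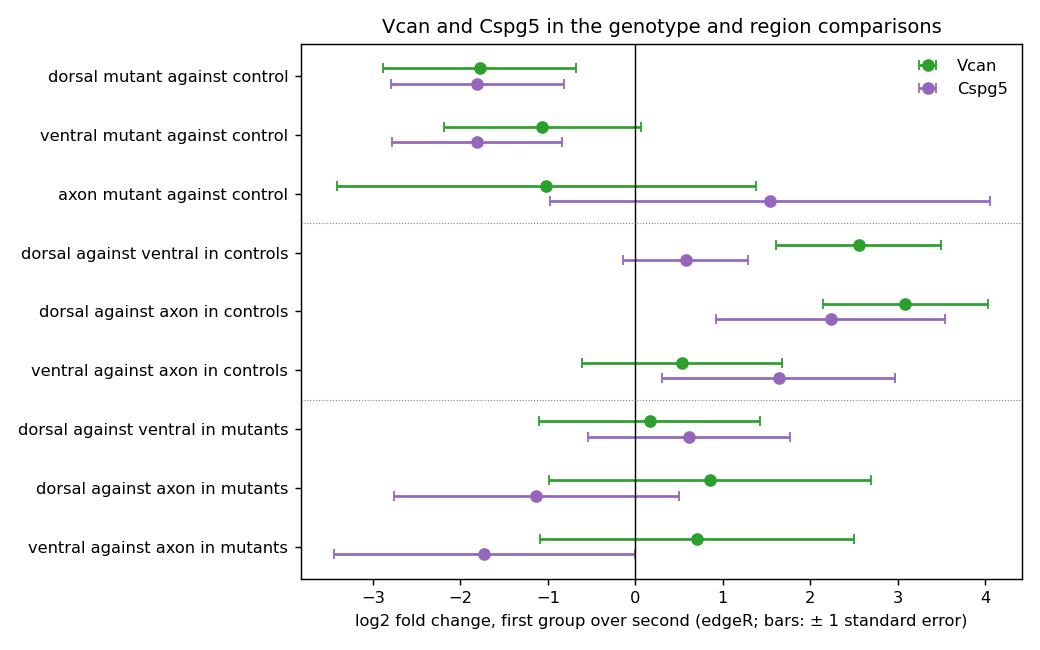
Fitted log2 fold changes of Vcan and Cspg5 with ± 1 standard error on the horizontal axis, for the 3 genotype comparisons and the 6 region comparisons on the vertical axis, the first-named group over the second. In the dorsal and ventral OS both genes lie below 0 in mutants against controls, at -1.78 and -1.06 for Vcan and -1.81 in both regions for Cspg5, and none passed the adjusted threshold.

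An exact permutation test of single genes asked whether the difference in mean log2(CPM + 1) between genotypes was larger than over all ways to split 9 libraries into 4 and 5, two-sided, where the smallest p is 0.00794. Of 17 such tests (Bcan in the axon region had no counts), 3 gave an unadjusted p under 0.05. Cspg5 was 1 of 6 genes in the dorsal OS (mean difference -1.87, exact permutation p = 0.0238) and 1 of 6 in the ventral OS (-2.08, exact permutation p = 0.0238). Tnc was 1 of 5 in the axon region (-1.87, exact permutation p = 0.0476). Of all genes tested, 7.66%, 4.12% and 4.91% had an exact permutation p under 0.05 in the dorsal, ventral and axon comparison. With splits made only within batches, where the smallest p is 0.025, the exact permutation p was 0.025 for dorsal Cspg5, 0.05 for ventral Cspg5 and 0.1 for axon Tnc. Leaving out single libraries moved the exact p from 0.0179 to 0.0893, from 0.0286 to 0.0714 and from 0.0179 to 0.143. For Vcan the exact permutation p was 0.0873, 0.230 and 0.159 in the dorsal, ventral and axon comparison, and for Tnc it was 0.127 in the dorsal comparison. Leaving out single libraries moved the exact p of dorsal Vcan from 0.0179 to 0.232 and that of dorsal Tnc from 0.0357 to 0.375, so that each went below 0.05 without some library.

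Cspg5 is the next protein-coding gene past the end of Smarcc1. It starts 3604 bases after the end of Smarcc1 (chr9:110117708-110240178), on the same strand and with no protein-coding gene between. The log2 fold change of Smarcc1 itself was -1.66 ± 0.99 in the dorsal OS, -2.37 ± 0.53 in the ventral OS and -2.46 ± 1.23 in the axon region (edgeR adjusted p = 0.953, 0.999 and 0.880). Of the other protein-coding genes around Smarcc1, 9 in the dorsal and 9 in the ventral comparison had more than 3 counts in at least 3 libraries of each genotype. They ranged from -4.82 to 1.22 in the dorsal OS, where 5 of 9 lay below 0 (median -0.04), and from -2.40 to 0.49 in the ventral OS, where 7 of 9 did (median -0.48). In the axon region 6 such genes ranged from -2.16 to 1.51, with 3 of them below 0 (median -0.12). Among these genes was Dhx30, which starts 0.122 kb past the start of Smarcc1 on the other strand. It shares 1.57% of the exonic bases of Smarcc1. Its log2 fold change was 1.09 ± 0.75 in the dorsal OS, -0.48 ± 0.40 in the ventral OS and 1.51 ± 1.84 in the axon region. All these genes were looked at after the Cspg5 values were seen. Across the 27 libraries Cspg5 and Smarcc1 had a Pearson r of 0.30, as a description. Whether the position of Cspg5 bears on its values was not tested.

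**Figure D3:**
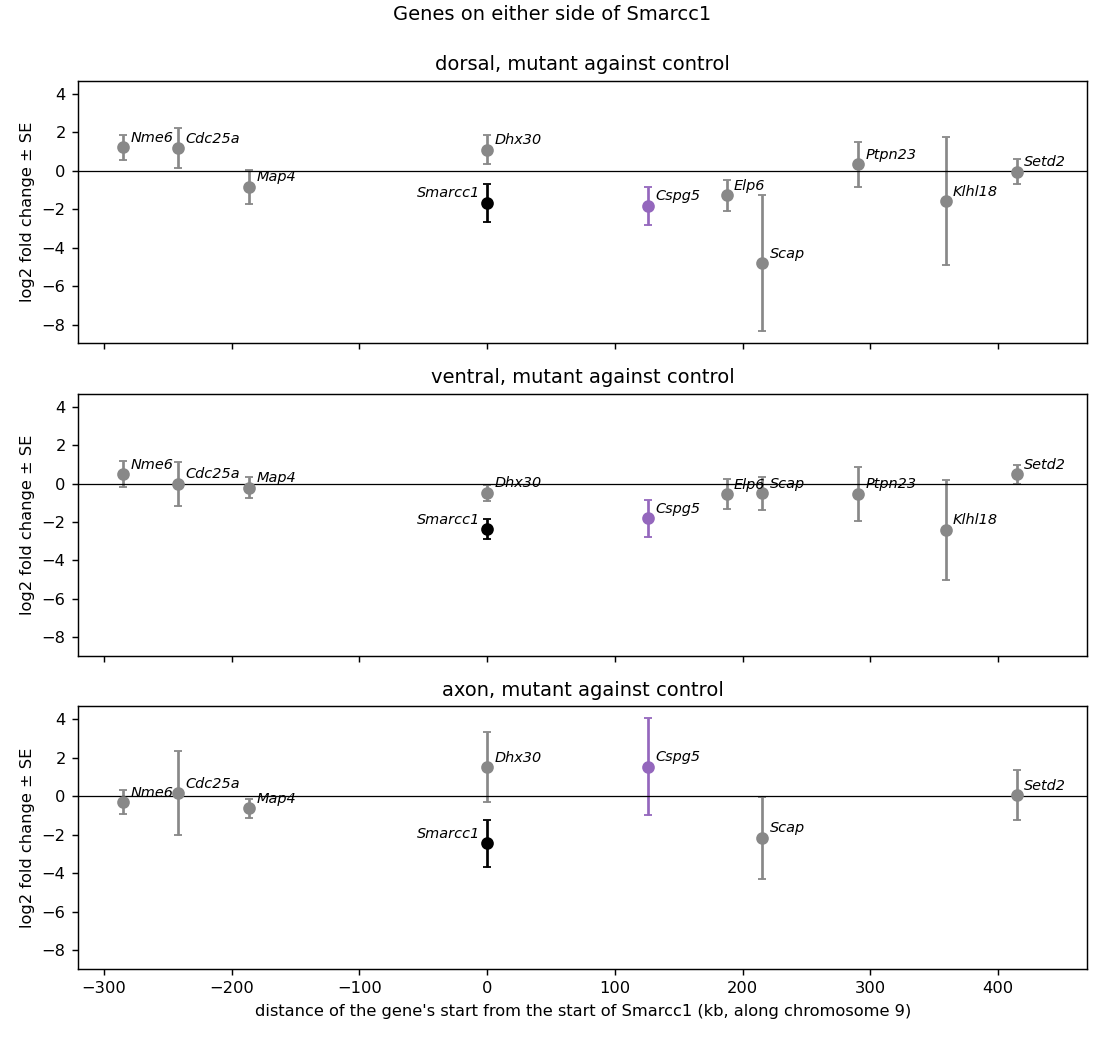
Fitted log2 fold change (mutant over control, ± 1 standard error) on the vertical axis against the distance of a gene's start from the start of Smarcc1 in kilobases on the horizontal axis, for the dorsal OS, ventral OS and axon region. Smarcc1 (black) lies below 0 in all 3 panels, Cspg5 (purple) lies at -1.81 in the dorsal and ventral OS and at 1.54 in the axon region, and the other genes (gray) lie on both sides of 0.

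Counted over all 6 genes, no member was called by edgeR in any of 12 comparisons. Between genotypes 0 of 6, 0 of 6 and 0 of 5 were called in the dorsal, ventral and axon comparison, where 0.0124%, 0% and 0% of all genes tested were called. Between regions 0 of 6 were called in each comparison. The background was 0%, 0.0692% and 0.0316% in controls and 0%, 0.545% and 0.443% in mutants, for dorsal against ventral, dorsal against axon and ventral against axon. For the differences between genotype effects of the same region pairs 0 of 6 were called against 0.00612%, 0.0245% and 0.00612%. At an unadjusted edgeR p under 0.05, no member passed between genotypes, against 5.35%, 3.19% and 3.55% of all genes. Between regions of controls 1, 3 and 0 of 6 passed, against 6.74%, 10.5% and 9.19%, and in mutants 1, 2 and 2 of 6, against 12.4%, 23.5% and 21.8%. For the differences between genotype effects 2, 0 and 1 of 6 passed, against 7.39%, 11.7% and 10.4%. Apart from Vcan in controls these were Ncan, Bcan and Hapln1. In the region comparisons they exceeded 3 counts in 1 to 4 libraries of the higher group and in 0 of the lower. No member had groups that did not overlap between genotypes, against 2.92%, 1.23% and 1.28% of all genes.

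DESeq2 on the same counts called Tnc and Hapln1 in the axon genotype comparison (DESeq2 adjusted p = 0.0373 and 2.12e-06, 2 of 5 members against 8.23% of all genes) and Ncan in mutants between the dorsal OS and the axon region (DESeq2 adjusted p = 0.00379, 1 of 6 against 9.96%). In the other 10 comparisons it called none. The share over all genes is not given for those, so nothing is read from that count. The axon value of Hapln1 rested on 29.6 CPM in 1 of 9 libraries, and that of Tnc on 3 control libraries of 1.69 to 19.1 CPM. Dorsal Ncan in mutants rested on 3 of 5 libraries.

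**Figure D4:**
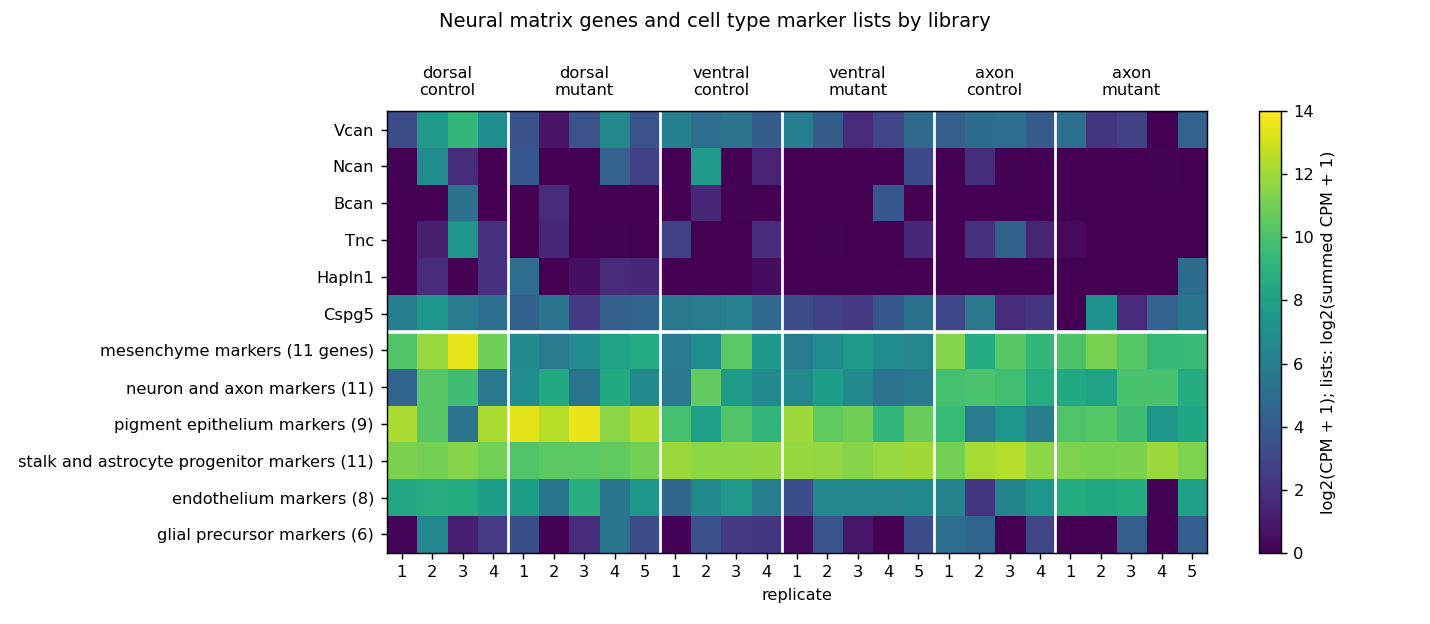
Heat map of log2(CPM + 1) for the 6 genes and of log2(summed CPM + 1) for 6 lists of cell type markers (rows) in the 27 libraries (columns, numbered by replicate within region and genotype), from dark at 0 to yellow at 14. Vcan, Bcan and Tnc reach their highest values in dorsal control 3, where the mesenchyme markers sum to 11399 CPM. The neuron markers sum to 831 CPM in that library. Within the dorsal controls the libraries have the same order by Vcan and by the mesenchyme markers. In axon control 1 the mesenchyme markers sum to 2659 CPM and Vcan is at 17.8 CPM. Ncan reaches its highest values in the dorsal and ventral libraries of control 2, where the neuron markers sum to 1323 and 1567 CPM.

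The genes most like each member were those with the highest Pearson r of log2(CPM + 1) over the 27 libraries among 9106 protein-coding genes of at least 10 CPM on average. For Vcan they were Rnase4 (r = 0.72), Nfatc4 (0.72) and Pkd2 (0.71), which stayed at 0.66 to 0.69 without dorsal control 3. For Cspg5 they were Nlgn2 (0.73), Stau2 (0.73) and Rab8a (0.71). For Ncan they were Ntrk3 (0.78), Sox11 (0.75) and Tac1 (0.74), and for Hapln1 Klhl6 (0.71), Adamts9 (0.59) and Prkcb (0.58). For Tnc they were Aldh1a2 (0.78), Gtf2h4 (0.69) and Angptl7 (0.68), which became 0.59, 0.81 and 0.23 without dorsal control 3. For Bcan, with 4 libraries above the floor, they were Hnrnpa0 (0.58), Sox4 (0.56) and Zbtb4 (0.56), which became 0.33, 0.43 and 0.54 without dorsal control 3. All are the top of a search over many genes and are given with no p.

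The closest relatives of the members were mostly silent. Aggrecan (Acan), Hapln2 and the neural tenascin Tnr did not exceed 2.2 CPM in any library. Of the 7 other lecticans, link proteins and tenascins, only Hapln3 was tested. It was not called between genotypes (0 of 1 in each region, beside 0.0124%, 0% and 0% of all genes in dorsal, ventral and axon). Hapln3, a link protein of non-neural tissues, was at 0 to 106 CPM in dorsal controls and at 0 to 3.32 CPM in dorsal mutants, with 2 libraries of each group above 3 counts. Tnxb, the tenascin of connective tissue, was above 3 counts only in 2 ventral mutant libraries (up to 27.6 CPM).

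Of the genes that make, bind and break down hyaluronan, 0 of 9, 0 of 9 and 0 of 8 tested were called between genotypes in dorsal, ventral and axon. The share over all genes was 0.0124%, 0% and 0%. Counts of 0 are near that share, and nothing is read from them here or for the lists below. The median log2 fold changes of the list were -0.36, 0.43 and -1.40, beside -0.04, -0.08 and -0.29 over all genes. The axon median of the list was -1.54 with genes whose group was at 0 set to the 3-count bound per library. The most abundant were Hyal2, a hyaluronidase (mean over libraries 96.8 CPM), and Hmmr, a hyaluronan receptor also known from the mitotic spindle (91.5 CPM). Hmmr had the smallest p of the list, in the ventral OS, where controls held 54.2 to 83.0 CPM and mutants 77.1 to 185 CPM (log2 fold change 1.15 ± 0.40, edgeR adjusted p = 0.999). Cd44, the main hyaluronan receptor of the cell surface, held 0 CPM in all 5 axon mutants and 0 to 6.44 CPM in axon controls (edgeR adjusted p = 0.880). Its mean was higher in mutants of the other regions, at 24.9 against 14.2 CPM in the dorsal and 15.5 against 3.81 CPM in the ventral OS (edgeR adjusted p = 1.00 and 0.999).

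Of the 13 receptors and other proteoglycans of the list, 0 of 11 tested were called in each region. The share over all genes was 0.0124%, 0% and 0% in dorsal, ventral and axon. The medians of the list were -0.73, -0.53 and -1.82, beside -0.04, -0.08 and -0.29 over all genes. The axon median of the list was -0.34 with the bound. Ptprf, a receptor tyrosine phosphatase (mean over libraries 264 CPM), and Itgb1, an integrin subunit of some tenascin receptors (186 CPM), were the most abundant. Ptprs, the phosphatase that binds chondroitin sulfate on axons, was at 222.7 to 472 CPM in dorsal controls and 101 to 222.6 CPM in dorsal mutants. The groups thus stood just apart, as did those of 2.92% of all genes (log2 fold change of Ptprs -0.92 ± 0.33, edgeR adjusted p = 0.918). Cntn1, an adhesion molecule of axons, was at 0.167 to 22.7 CPM in axon controls and at most at 0.0584 CPM, under the floor, in axon mutants (edgeR adjusted p = 0.880). It exceeded 3 counts in 3 of the 4 axon controls. The axon groups of 1.28% of all genes did not overlap.

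Of the 22 genes that build and sulfate chondroitin sulfate chains, 0 of 21, 0 of 21 and 0 of 20 tested were called. The share over all genes was 0.0124%, 0% and 0%. The medians of the list were 0.56, -0.32 and -0.44, beside -0.04, -0.08 and -0.29 over all genes. The polymerizing enzyme Chsy1 (mean over libraries 88.3 CPM) and the linker enzyme B3gat3 (25.4 CPM) were the most abundant. Chst3, which sulfates carbon 6 of the chain, exceeded 3 counts in all 4 dorsal controls (4.64 to 75.7 CPM) and in none of the 5 dorsal mutants (at most 0.0596 CPM). Chst3, picked for its small p, thus had dorsal groups that did not overlap, as did 2.92% of all genes. In the ventral OS it was at 3.32 to 64.7 CPM in controls and at 0 to 3.67 CPM in mutants. Its edgeR adjusted p was 0.261 in the dorsal and 0.999 in the ventral OS, so that it did not pass the test in either. Ust, the uronyl sulfotransferase, was at 3.67 to 35.7 CPM in axon controls and at 0 CPM in all 5 axon mutants (edgeR adjusted p = 0.880). Ust, also picked for its small p, thus had axon groups that did not overlap, as did 1.28% of all genes. Its mean was 2.85 CPM in mutants against 2.53 CPM in controls of the dorsal OS, and 22.2 against 9.78 CPM in the ventral OS (edgeR adjusted p = 1.00 and 0.999).

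Of the 7 ADAMTS proteases that cut lecticans, 0 of 7, 0 of 7 and 0 of 6 tested were called. The share over all genes was 0.0124%, 0% and 0%. The medians of the proteases were -0.66, 0.37 and -2.74, beside -0.04, -0.08 and -0.29 over all genes. The summed CPM of the 7 proteases was 206 to 486 in dorsal controls and 154 to 202 in dorsal mutants, which did not overlap and was not tested. The means of this sum were 320 and 176 CPM, of which Adamts15 alone made up 146 and 13.8 CPM. Adamts9 went the other way, with means of 27.4 and 72.2 CPM, and 3 of the 7 genes were fitted higher in dorsal mutants. Adamts15, the most abundant (mean over libraries 78.2 CPM), held 65.0 to 223 CPM in dorsal controls and 0.0917 to 29.2 CPM in dorsal mutants (log2 fold change -3.35 ± 1.09, edgeR adjusted p = 0.918). Its dorsal groups did not overlap, as was so for 2.92% of all genes, and it was among the genes picked for a small p. In the ventral OS the values were 94.3 to 279 and 4.53 to 230 CPM. Adamts9, which also cleaves versican, was at 0 to 63.3 CPM in dorsal controls and 23.6 to 129 CPM in dorsal mutants (edgeR adjusted p = 1.00). Adamts8 was above 3 counts in 2 dorsal controls and in none of the dorsal mutants (edgeR adjusted p = 0.953).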

How the data were processed

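Raw gene-level counts of the 27 Geo-seq libraries were used as deposited. Per the labels and the submitters' processing notes, the authors used STAR for alignment to mm10 and HTSeq for counting, from 150-bp single-end reads, and Salmon is also named; tool versions, annotation and strand setting are not given in the sources used here. Libraries were PCR-amplified without molecular identifiers, so detection floors cover counting error only. Of 55487 gene identifiers, 55227 matched GENCODE M21 and 22523 were at 0 in all libraries; no 2 libraries were identical. CPM and RPKM were computed from the total counts, and RPKM used the union of GENCODE M21 exons.

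The genes with over 10 counts in 3 or more libraries were tested in edgeR 4.0.16 (R 4.3.3) by the quasi-likelihood test with TMM normalization and Benjamini-Hochberg adjustment, and were called at an adjusted p under 0.05 with an absolute log2 fold change over 0.58. Genotype was tested region by region with a batch term. Regions were compared in each genotype separately, and the differences between genotype effects were tested over all libraries with a batch term. Fold changes are given only for comparisons in which, with all libraries, at least 3 of each group exceeded 3 counts; their alternatives, such as batch B alone with 2 mutants, can rest on fewer. Single genes were tested by exact permutation of log2(CPM + 1), with a pseudocount of 1 CPM. DESeq2 1.42.0, limma 3.58.1 with voom, other size factors, no filter, no batch term, batch B alone, all 27 libraries, replicate blocks and leaving out each library were the alternatives. The scripts were tested on simulated data.

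By the numbers in the sample names, libraries with 1 number and genotype were taken to come from the same embryo, which gives the pairing of regions. Their deviations from the group means correlated weakly (27 pairs, r from -0.02 to 0.11, median 0.04). The same number in both genotypes is only a number. The 6 genes and the lists of related genes and cell type markers were chosen with earlier results of these data known. Beside the members, the genes named from each list were the 2 with the highest mean CPM and the 2 with the smallest p between genotypes, and the genes most like a member were its 3 highest correlations.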

Additional observations from a re-analysis of the deposited data

Results flagged for a closer look

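In 11 of 31 groups with counts, 1 library of a member lay apart from the rest of its group by Dixon's test on log2(CPM + 1), which flags about 1 group in 20 by chance where values are continuous. That rate cannot be used here, since a single detected library in a group otherwise at or near 0 is set apart by construction, and nothing is read from the number of such groups. All 11 were the highest library of their group. For Ncan they were ventral mutant 5 (7.90 CPM) and axon control 2 (2.51 CPM). For Bcan they were dorsal control 3 (36.8 CPM), dorsal mutant 2 (2.44 CPM), ventral control 2 (2.06 CPM) and ventral mutant 4 (13.7 CPM). For Tnc they were dorsal mutant 2 (2.03 CPM), ventral mutant 5 (1.90 CPM) and axon mutant 1 (0.286 CPM). For Hapln1 they were ventral control 4 (0.373 CPM) and axon mutant 5 (29.6 CPM). In each case the next library of the group was at 0 or under 3 counts. No library of Vcan or Cspg5 was among them.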

How the results depend on the processing

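The counts of members called, and of members with an exact permutation p under 0.05, together equaled their main value in 208 of 234 alternatives. The 25 fold changes kept their direction in 381 of 405. DESeq2 called 2 members in the axon genotype comparison and 1 in mutants between the dorsal OS and the axon region, where edgeR called 0. With splits within batches the number of members with an exact permutation p under 0.05 was 0 in the ventral and 0 in the axon comparison, and leaving out single libraries gave 0 to 2 in the dorsal, 0 to 1 in the ventral and 0 to 1 in the axon comparison. With limma voom, the mutant differences were -0.23 (Vcan, dorsal against ventral), 1.22 (Cspg5, dorsal against axon) and 0.34 (Cspg5, ventral against axon), and with all 27 libraries the first was -0.13. Leaving out single libraries moved Cspg5 between genotypes in the axon region from -0.42 to 3.11, Cspg5 in controls between dorsal and ventral OS from -0.012 to 0.85 and Tnc in controls between dorsal OS and axon from -2.38 to 4.62. In mutants it moved Vcan from -1.47 to 1.00 (dorsal against ventral), from -0.74 to 1.58 (dorsal against axon) and from -0.15 to 1.43 (ventral against axon), and Cspg5 from -1.50 to 0.21 (dorsal against axon). The differences between genotype effects moved from -0.29 to 0.86 (Cspg5, dorsal against ventral) and from -0.17 to 0.74 (Vcan, ventral against axon). The cause was not tested. Values under 3 counts have no order, and in the 4 sparse genes the depth of 10.9 to 33.98 M counts leaves levels below 0.0883 to 0.275 CPM undetectable.

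With the embryo as a replicate block, the mutant differences were -0.64 (Vcan, dorsal against ventral), -0.35 (Vcan, dorsal against axon) and 0.16 (Cspg5, dorsal against axon), and the block changed no call. With the number alone as a block, which pairs no embryos (12 pairs, median r -0.02), Cspg5 between genotypes in the axon region was -2.81 and Vcan in the dorsal OS was -0.00052, and no member was called.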
